A study of Mus musculus with 6 samples.

Results

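The circadian clock genes of mouse AT2 cells, the surfactant-producing cells of the alveolar epithelium, were compared between 3 m and 24 m animals. They were chosen by name as *Clock*, *Npas2*, *Per1*, *Per2*, *Per3*, *Cry1*, *Cry2*, *Nr1d1*, *Nr1d2* and *Dbp*, and all 10 were found among the 24224 genes counted and among the 14899 genes that passed the filter on low counts. Both ages were wild-type C57BL/6J mice (written C57/6J in the labels) that had aged naturally, with no other treatment, and AT2 cells were sorted from their lungs as CD45- CD31- CD326+ MHCII+ cells. Each age had 3 biological replicates, and each replicate pooled lung cells from several mice, so the spread between libraries is a spread between pools. The hour of the day at which the lungs were taken is not given in the sources used here, and because the transcripts of these genes cycle over the day, the hour of collection and the age cannot be told apart.

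The mammalian clock is a feedback loop of transcription. CLOCK, or its relative NPAS2, pairs with BMAL1 (gene *Arntl*) and binds E-boxes to activate the *Per*, *Cry*, *Nr1d* and *Dbp* genes. PER and CRY proteins return to the nucleus and repress that activation. REV-ERBα and REV-ERBβ, encoded by *Nr1d1* and *Nr1d2*, repress *Arntl*, *Clock*, *Npas2* and *Cry1* through elements they share with the ROR activators, so the arms of the loop peak at different hours. DBP is an output factor that binds D-boxes. The lung epithelium holds such a clock, and glucocorticoid and cAMP signals can induce *Per1* in mouse tissues outside the loop.

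Promoter sequence was looked up because these genes are linked through shared elements. RefSeq windows on GRCm38.p6, from 250 bases before to 50 bases after a transcription start, matched 9 of the 10 genes with 12 windows among 32851 windows of all genes. Both strands were searched for the E-box CACGTG, the E'-box CACGTT, the D-box forms TTATGTAA and TTACGTAA, the ROR element core TAGGTCA, the cAMP element TGACGTCA and the glucocorticoid element. A match here is a description of letters in the window and not a binding site. The 5 windows with a match are shown 5′ to 3′ up to the base before the start, with the matched letters in capitals, which read AACGTG where an E'-box lies on the other strand.
*Per1*, chr11:69098699-69098948, plus strand: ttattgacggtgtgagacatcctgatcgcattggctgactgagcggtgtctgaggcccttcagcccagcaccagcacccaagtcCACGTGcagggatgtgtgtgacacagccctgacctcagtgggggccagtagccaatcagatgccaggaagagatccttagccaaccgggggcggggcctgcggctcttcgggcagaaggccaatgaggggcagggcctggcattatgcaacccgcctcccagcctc
*Per3*, chr4:151044666-151044915, minus strand: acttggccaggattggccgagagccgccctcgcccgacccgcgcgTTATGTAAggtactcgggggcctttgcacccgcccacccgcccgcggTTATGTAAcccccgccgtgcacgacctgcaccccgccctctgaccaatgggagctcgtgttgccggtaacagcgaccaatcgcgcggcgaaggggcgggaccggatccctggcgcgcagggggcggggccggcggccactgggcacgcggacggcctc
*Cry1*, chr10:85185055-85185304, minus strand: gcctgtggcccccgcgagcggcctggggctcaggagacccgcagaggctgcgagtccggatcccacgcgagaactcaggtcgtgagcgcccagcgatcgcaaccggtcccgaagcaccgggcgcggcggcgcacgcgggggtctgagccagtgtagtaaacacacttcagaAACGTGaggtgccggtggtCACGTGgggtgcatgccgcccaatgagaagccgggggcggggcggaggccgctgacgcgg
*Cry2*, chr2:92434070-92434319, minus strand: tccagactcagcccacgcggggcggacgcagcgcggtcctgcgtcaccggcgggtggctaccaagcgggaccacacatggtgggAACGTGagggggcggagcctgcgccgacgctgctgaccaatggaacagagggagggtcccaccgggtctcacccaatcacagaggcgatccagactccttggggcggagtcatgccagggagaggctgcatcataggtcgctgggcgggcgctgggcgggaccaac
*Nr1d1*, chr11:98775378-98775627, minus strand: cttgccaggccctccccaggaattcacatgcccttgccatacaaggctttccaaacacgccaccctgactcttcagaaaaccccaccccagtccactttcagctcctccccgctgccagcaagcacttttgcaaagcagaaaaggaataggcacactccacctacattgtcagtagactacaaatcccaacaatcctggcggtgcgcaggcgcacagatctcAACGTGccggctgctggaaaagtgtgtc
*Per1* and *Cry1* held an E-box, at 166 and 60 bases before the start, in 2 of the 12 windows, where 7.15% of all windows hold one. *Cry1*, *Cry2* and *Nr1d1* held an E'-box, at 79, 166 and 28 bases before the start, in 3 of the 12 windows, against 4.68% of all windows. *Per3* held the TTATGTAA form of the D-box at 205 and 158 bases before the start, a form found in 0.938% of all windows. None of the matches overlapped another. No window of these genes held TTACGTAA, TAGGTCA, TGACGTCA or the glucocorticoid element, which 0.119%, 2.61%, 1.79% and 0.00913% of all windows hold. The other 7 windows had no match.

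The libraries held 28827930 to 32394985 counts. Replicate 2 at 3 m stood apart from the other 5. It lay at 245 on the first principal component against -78.2 to -17.2, had 13430 genes with a count against 16356 to 21836, and had 693 genes at 0 that reached 20 counts in each other library, against 0 to 15. Mitochondrially encoded transcripts took 5.62% of its counts against 2.29% to 3.60%. In this library 7 of the 10 clock genes had their highest or lowest level of all, and the share of all genes that did was not taken. Fold changes are therefore given with and without it, a choice made with these values seen. Levels are CPM, that is counts relative to the library total after TMM scaling, and are listed for replicates 1, 2 and 3. All 11 AT2 markers looked at had counts in every library, and their summed level was 139536 to 229207 CPM at 3 m and 156055 to 164530 CPM at 24 m. Of these 11, 9 had a log2 fold change (24 m over 3 m) below 0 and 2 above, with a median of -0.11 against 0.05 over all tested genes. In every 24 m library 4 of them were lower than at 3 m, beside 5.41% of tested genes, and 1 was higher, beside 9.74%.

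Across the 10 genes, the transcripts of the negative arm *Per1*, *Per2*, *Cry2*, *Nr1d1* and *Nr1d2* were higher in every 24 m library than in any 3 m library, and *Npas2* of the positive arm was lower in every one. *Per3* and *Cry1*, also of the negative arm, overlapped between the ages, as did *Clock* and *Dbp*. These 5 higher genes stood beside 9.74% of all tested genes with ages that parted upward, and the 1 lower gene beside 5.41% that parted downward. The mean CPM of *Per2*, *Nr1d1* and *Per1* was 4.37, 4.29 and 3.97 times as high at 24 m. In edgeR's quasi-likelihood test over all 6 libraries, where a call needed an adjusted p (Benjamini-Hochberg) below 0.05 with a log2 fold change beyond 1 either way, no clock gene was called in either direction, and neither was any other gene (0% higher and 0% lower of 14899). The smallest adjusted p over all genes was 0.0800. At an unadjusted p under 0.05 the same test gave 5 clock genes higher, the same 5 as above, where 3.56% of tested genes were, and 2 lower, *Npas2* and *Cry1*, where 2.3% were. DESeq2, at the same limits, called 2 clock genes higher, *Per2* and *Cry2*, beside 1.59% of its genes, and none lower, beside 0.156%. In bulk libraries such as these, fewer cells of a type and less RNA per cell cannot be told apart.

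Without replicate 2 at 3 m, edgeR called 3 clock genes higher, *Per1*, *Per2* and *Nr1d1*, beside 0.506% of genes, and none lower, beside 0.0185%. DESeq2 without that library, an alternative added after the data had been seen, called 5 higher, which were *Per1*, *Per2*, *Cry2*, *Nr1d1* and *Nr1d2*, beside 2.49% of genes, and 1 lower, *Npas2*, beside 0.103%. The call also turned on the filter. With no filter on low counts, edgeR over all 6 libraries called 5 higher, *Per1*, *Per2*, *Nr1d1*, *Nr1d2* and *Dbp*, beside 0.739% of genes, and 1 lower, *Cry1*, beside 0.116%. The median log2 fold change of the 10 genes was 1.17, with 7 above 0 and 3 below, and that of all tested genes was 0.05.

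**Figure D1:**
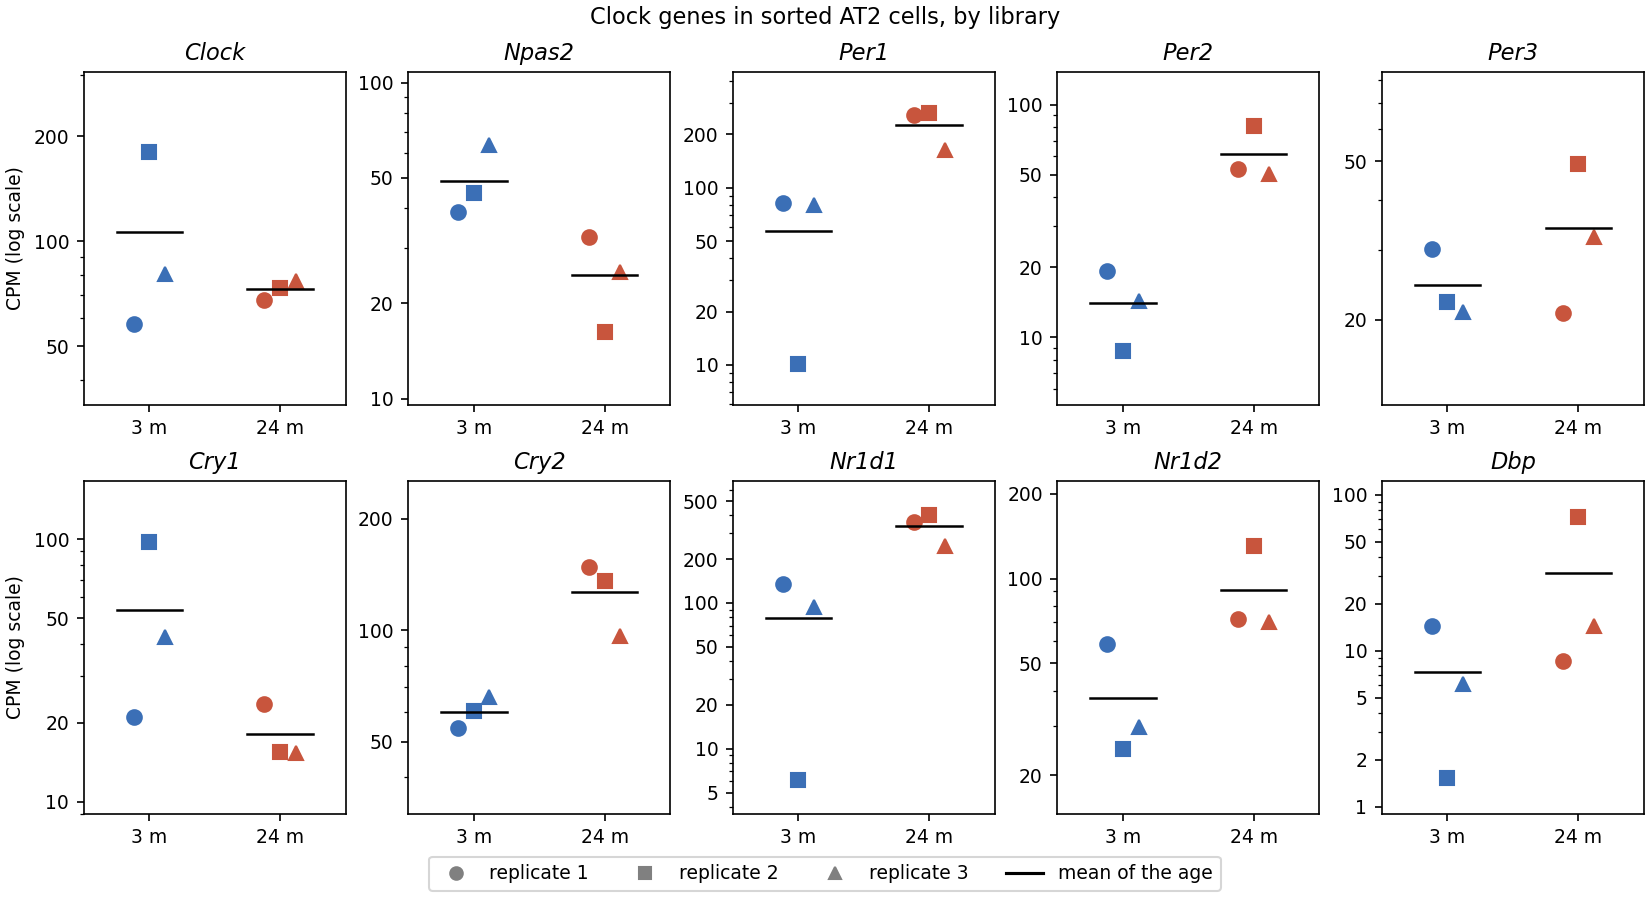
Levels of the 10 clock genes by library, in CPM on a log axis that differs between panels, at 3 m and 24 m. Each point is 1 library with its replicate number as the symbol, and the line is the mean of the age. In *Per1*, *Per2*, *Cry2*, *Nr1d1* and *Nr1d2* all 24 m points lie above all 3 m points, and the square of 3 m replicate 2 lies at 6.09 CPM in *Nr1d1*.

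The activators came first. *Clock*, the DNA-binding partner of BMAL1, was at 57.7, 179.8 and 80.5 CPM at 3 m and at 68.0, 73.3 and 76.8 CPM at 24 m. All 24 m values lay within the range of the 3 m values, and replicate 2 at 3 m was the highest of all. Its log2 fold change was -0.54 ± 0.40 (SE) and did not pass the test (edgeR adjusted p = 0.847). Without replicate 2 at 3 m it was 0.08 ± 0.19, so the sign rested on that library. *Npas2*, which can stand in for *Clock*, was at 38.9, 44.6 and 63.5 CPM at 3 m and at 32.6, 16.3 and 25.1 CPM at 24 m. The ages did not overlap, with all of the 24 m values below those at 3 m and 24 m replicate 2 the lowest. Its log2 fold change was -0.99 ± 0.33 (edgeR adjusted p = 0.780) and -1.05 ± 0.29 without 3 m replicate 2, where DESeq2 called it (adjusted p = 0.0292) and edgeR did not (adjusted p = 0.191).

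The *Per* genes encode the period proteins that bring the cryptochromes to the CLOCK complex. *Per1* was at 81.6, 10.1 and 80.1 CPM at 3 m and at 256, 264 and 163 CPM at 24 m. The ages did not overlap, and replicate 2 at 3 m was far below the 2 other young libraries, which were nearly level. The difference was 1.99 ± 0.66 on the log2 scale (edgeR adjusted p = 0.764, DESeq2 adjusted p = 0.0643). Without that library the mean at 24 m was 2.81 times that at 3 m rather than 3.97 times, and the log2 fold change of 1.49 ± 0.23 was called (edgeR adjusted p = 0.0175). *Per2* was at 19.2, 8.69 and 14.3 CPM at 3 m and at 52.7, 81.3 and 50.2 CPM at 24 m. The lowest 24 m library stood well above the highest 3 m library, and no 3 m library stood far from the others. Its log2 fold change of 2.13 ± 0.36 had the 20th smallest unadjusted p value in edgeR. The adjusted p was 0.220 in edgeR over its 14899 genes and 3.9e-05 in DESeq2. Without 3 m replicate 2, *Per2* was called by both tools, at 1.88 ± 0.26 (edgeR adjusted p = 0.0126).

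*Per3*, which is not needed for the rhythm in mice, did not go with the other period genes. It was at 30.2, 22.1 and 20.9 CPM at 3 m and at 20.8, 49.1 and 32.2 CPM at 24 m, so that the ages overlapped and both the lowest and the highest library were 24 m libraries. At a log2 fold change of 0.48 ± 0.35 the test was not passed (edgeR adjusted p = 0.847), and the value was 0.42 ± 0.32 without 3 m replicate 2 (adjusted p = 0.767). No alternative called it.

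The cryptochromes, the main repressors of CLOCK and BMAL1, had opposite signs. *Cry1* was at 21.0, 97.8 and 42.4 CPM at 3 m and at 23.6, 15.4 and 15.3 CPM at 24 m. The ages overlapped, since 3 m replicate 1 was below 24 m replicate 1, and 3 m replicate 2 was the highest. Its log2 fold change was -1.57 ± 0.52 (edgeR adjusted p = 0.767), and -0.81 ± 0.31 without 3 m replicate 2 (adjusted p = 0.390). *Cry2* was at 54.3, 60.4 and 66.0 CPM at 3 m and at 148, 135 and 96.1 CPM at 24 m. The 3 m libraries lay close together, replicate 2 among them, and all 24 m libraries were above them. The mean was 2.10 times as high at 24 m, and the log2 fold change of 1.07 ± 0.25 was called by DESeq2 (adjusted p = 0.0219) and not by edgeR (adjusted p = 0.410). Without 3 m replicate 2 the log2 fold change was again 1.07, at an edgeR adjusted p of 0.0656.

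The REV-ERB genes differed in their range among the young libraries, and that of *Nr1d1* was the widest of the 10 clock genes. *Nr1d1* was at 135, 6.09 and 93.7 CPM at 3 m and at 361, 403 and 245 CPM at 24 m. The ages did not overlap, and the highest 3 m library was 22.2 times the lowest, which was replicate 2. Between the ages the log2 fold change was 2.10 ± 0.84 (edgeR adjusted p = 0.828). Leaving out 3 m replicate 2 brought the ratio of the means from 4.29 to 2.94 and the log2 fold change to 1.56 ± 0.25, which was called (edgeR adjusted p = 0.0219). *Nr1d2* was at 58.6, 24.9 and 29.7 CPM at 3 m and at 72.0, 130.4 and 70.0 CPM at 24 m. Its ages did not overlap either, with 3 m replicate 1 nearest to the 24 m range. With a log2 fold change of 1.27 ± 0.40 it did not pass the test (edgeR adjusted p = 0.695). Without 3 m replicate 2 it was 1.04 ± 0.33, called by DESeq2 (adjusted p = 0.0312) and not by edgeR (adjusted p = 0.275).

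*Dbp*, which encodes the D-box activator at the output of the clock, was the lowest clock gene in CPM at 3 m and the most uneven at 24 m. It was at 14.3, 1.53 and 6.11 CPM at 3 m, the lowest resting on 43 counts, and at 8.61, 71.7 and 14.4 CPM at 24 m. The ages overlapped, and 24 m replicate 2 alone carried the 24 m mean of 31.6 ± 34.9 CPM (SD, n = 3). The log2 fold change was 2.11 ± 0.94 (edgeR adjusted p = 0.828), and it was 1.63 ± 0.75 without 3 m replicate 2 (edgeR adjusted p = 0.491). It was 0.67 without 24 m replicate 2 and 3.04 without 3 m replicate 1. The size of the difference thus depended on which libraries entered.

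**Figure D2:**
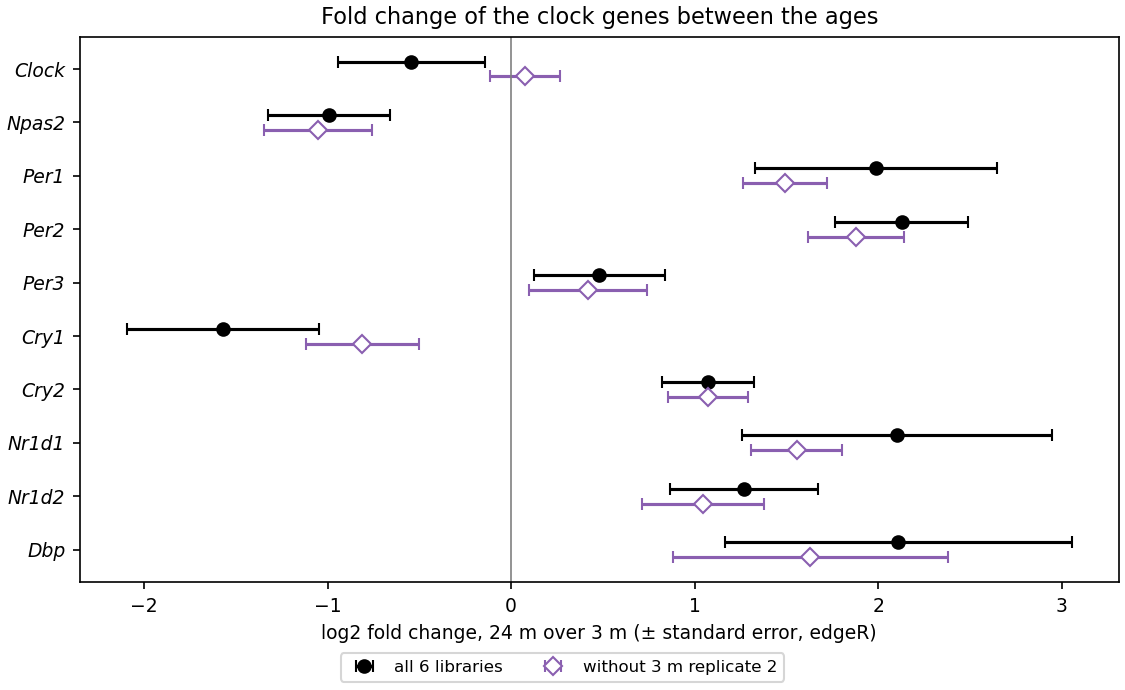
The log2 fold change of each clock gene, 24 m over 3 m, from edgeR with its standard error, over all 6 libraries (filled circles) and without 3 m replicate 2 (open diamonds). The bars of *Per1* and *Nr1d1* shorten without that library, from 0.66 to 0.23 and from 0.84 to 0.25, *Cry2* stays at 1.07, and *Clock* crosses 0.

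Within the young age, replicate 2 departed from the others in both directions. On the log2 CPM scale, centred on the mean of the 6 libraries, *Nr1d1* was at -4.27, *Per1* at -3.22 and *Dbp* at -2.73 in this library, while *Cry1* was at 1.80 and *Clock* at 1.12. It held the lowest value of 5 clock genes and the highest of 2. Among the old libraries, replicate 2 held the highest value of 6 clock genes and the lowest of 1, *Npas2*, and there *Dbp* was at 2.79. Replicate 2 at 3 m also stood apart over all genes, as given above, and the part of that in the clock values was not tested.

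**Figure D3:**
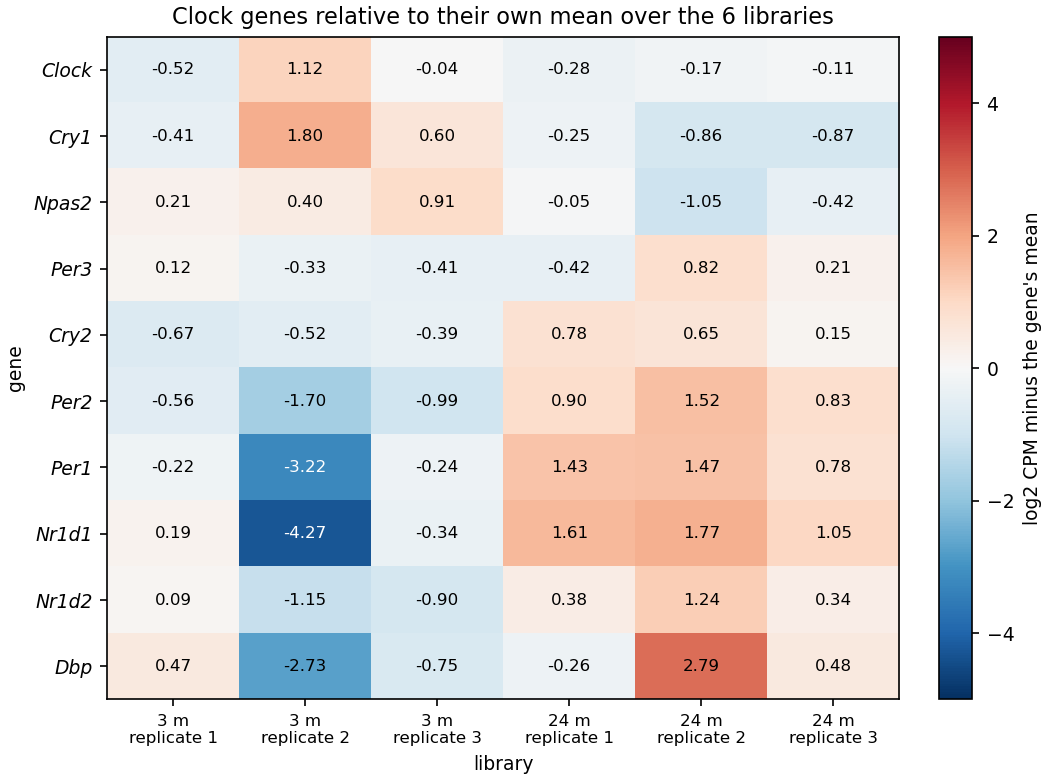
Log2 CPM of each clock gene in each library, centred on the gene's mean over the 6 libraries, as a heatmap. The column of 3 m replicate 2 runs from -4.27 in *Nr1d1* to 1.80 in *Cry1*, and that of 24 m replicate 2 reaches 2.79 in *Dbp*.

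Ratios of clock genes within a library carry no scaling between libraries. The pairs were picked after the values had been seen and are a description. The log2 ratio of *Nr1d1* to *Npas2* was 1.80, -2.87 and 0.56 at 3 m and 3.47, 4.63 and 3.29 at 24 m. For *Per2* over *Cry1* it was -0.13, -3.49 and -1.57 at 3 m and 1.16, 2.40 and 1.72 at 24 m, and thus below 0 in every young library and above 0 in every old one. Between the cryptochromes, *Cry2* over *Cry1* was 1.37, -0.70 and 0.64 at 3 m and 2.65, 3.14 and 2.65 at 24 m. In contrast, the ratio of *Dbp* to *Per1* overlapped between the ages, at -2.51, -2.73 and -3.71 and at -4.89, -1.88 and -3.49.

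Levels between genes were compared on the authors' FPKM, which divides by gene length. *Nr1d1* was the most abundant clock gene at both ages, at 25.1 ± 20.7 FPKM at 3 m and 112 ± 26.3 FPKM at 24 m (SD, n = 3), and ranked first in 5 of the 6 libraries. In 3 m replicate 2 it ranked 7th, and *Cry1* and *Clock* ranked first and second. At 24 m *Per1* followed at 41.4 ± 9.94 FPKM and ranked second in each library. *Cry2* at 20.6 ± 4.31 and *Nr1d2* at 17.2 ± 6.36 FPKM came next and differed by less than their spread, as did *Dbp* at 10.8 ± 11.9 and *Per2* at 10.8 ± 2.94 FPKM. *Per2* lay above *Cry1* in each 24 m library. *Cry1*, *Clock* and *Npas2* were nearly level at 5.57, 5.44 and 5.29 FPKM, and *Per3* had the lowest mean, 3.64 ± 1.50 FPKM. At 3 m the order after *Nr1d1* was *Cry1* at 15.4 ± 10.7, *Per1* at 10.1 ± 7.32, *Npas2* at 10.1 ± 3.37, *Cry2* at 9.30 ± 1.49, *Clock* at 7.41 ± 4.22 and *Nr1d2* at 6.74 ± 3.10 FPKM. *Per3*, *Dbp* and *Per2* closed it at 2.46, 2.37 and 2.34 FPKM. Over the 3 young libraries no neighbours in that order differed beyond their spread, apart from *Nr1d2* and *Per3*. By these means *Npas2* ranked 4th at 3 m and 9th at 24 m, and *Per2* 10th and 6th. *Cry1* ranked 2nd and 7th, but its young rank rested on replicate 2. Without that library, an alternative added after the data had been seen, *Cry1* was at 5.93 and 13.3 FPKM at 3 m and ranked 4th, with *Npas2* 3rd, *Per2* 9th and *Per1* 2nd. *Nr1d1* was then at 41.5 and 32.0 FPKM and *Per1* at 14.9 and 13.6 FPKM, so that these neighbours no longer overlapped.

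**Figure D4:**
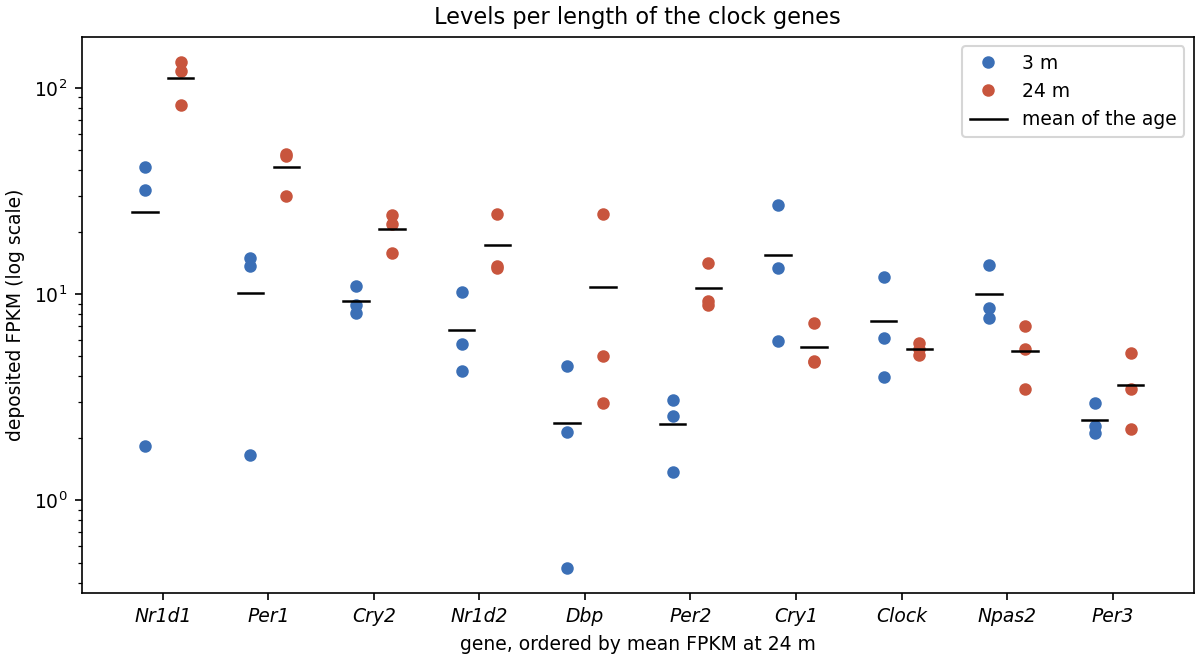
FPKM of the 10 clock genes in each library at 3 m and 24 m, on a log axis, so that genes can be set side by side per length. *Nr1d1* lies highest at 24 m with a mean of 112 FPKM and *Per3* lowest with 3.64 FPKM.

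Some of these genes overlap a neighbour on the opposite strand, and whether the counting used strand is not given in the sources used here, so reads from the shared bases cannot be told apart. In GENCODE vM21 on GRCm38, *Nr1d1* shares 263 of 3077 exonic bases with *Thra*, a thyroid hormone receptor, *Dbp* shares 539 of 2993 with *Sphk2*, and *Cry2* shares 295 of 6320 with *D930015M05Rik*. *Thra* was at 96.1, 74.4 and 114 CPM at 3 m and at 101, 79.8 and 81.4 CPM at 24 m, with a log2 fold change of -0.12 (edgeR adjusted p = 0.938). *Sphk2* was at 58.9, 30.8 and 62.1 CPM at 3 m and at 63.2, 60.1 and 58.4 CPM at 24 m. Its log2 fold change was 0.26 (edgeR adjusted p = 0.885). It lay above *Dbp* in each library but 24 m replicate 2, and its part in the *Dbp* counts was not tested. *D930015M05Rik* was at or below 4.67 CPM in every library.

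The rest of the pathway was read from lists chosen with earlier results of these data known. Of 4 tested activators beyond *Clock* and *Npas2*, 1 had a log2 fold change above 0 and 3 below, with a median of -0.57 against 0.05 over all tested genes, and none was at an unadjusted p under 0.05. *Arntl*, which encodes BMAL1, was at 48.3, 71.8 and 53.5 CPM at 3 m and at 50.5, 21.4 and 34.7 CPM at 24 m. The ages overlapped, and the lowest value was that of 24 m replicate 2, as for *Npas2* (log2 fold change -0.70, edgeR adjusted p = 0.828). Of 17 further repressors and kinases, 10 were above 0 and 7 below, with a median of 0.16, and 1 was higher at an unadjusted p under 0.05, where 3.56% of tested genes were. That gene was *Bhlhe40*, which encodes DEC1, a repressor at E-boxes, at 129.7, 86.8 and 94.4 CPM at 3 m and at 209, 354 and 119 CPM at 24 m (log2 fold change 1.13, edgeR adjusted p = 0.802). Its ages overlapped through 24 m replicate 3. In every 24 m library 2 of the 17 were higher than at 3 m, beside 9.74% of tested genes, and none was lower, beside 5.41%. *Bhlhe41* was at 2.34, 0.18 and 2.41 CPM at 3 m and at 5.06, 12.7 and 3.48 CPM at 24 m. *Usp2* was at 1.41, 0 and 1.30 CPM at 3 m and at 3.04, 8.45 and 2.11 CPM at 24 m. The edgeR adjusted p was 0.828 for each.

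Among 12 D-box factors and clock outputs other than *Dbp*, 8 were above 0 and 4 below, with a median of 0.37 against 0.05 over all tested genes. Again 1 was higher at an unadjusted p under 0.05, where 3.56% of tested genes were. That gene was *Nfil3*, which encodes E4BP4, the repressor that competes with DBP at D-boxes. It was at 28.4, 19.2 and 17.3 CPM at 3 m and at 68.6, 52.6 and 34.2 CPM at 24 m, and the ages did not overlap (log2 fold change 1.26, edgeR adjusted p = 0.542). With *Wee1*, 2 of the 12 were higher in every 24 m library, beside 9.74% of tested genes, and none was lower, beside 5.41%. The log2 ratio of *Dbp* to *Nfil3* was -0.99, -3.65 and -1.50 at 3 m and -2.99, 0.45 and -1.25 at 24 m, with overlap between the ages. No gene of these clock lists was called by edgeR or by DESeq2.

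Genes of the list of cAMP and immediate early genes, which also holds heat shock genes, were mostly higher at 24 m. Of 20 tested, 19 were above 0, with a median of 2.06 against 0.05 over all tested genes. The 1 below 0 was *Crem* (log2 fold change -0.42, edgeR adjusted p = 0.893). At an unadjusted p under 0.05, 13 were higher, where 3.56% of tested genes were, and DESeq2 called 8 higher, beside 1.59% of its genes, while edgeR called none. Their summed level was 8768, 1011 and 4857 CPM at 3 m and 20313, 20526 and 9649 CPM at 24 m. It was lowest in 3 m replicate 2, as *Per1* was, in a library that stood apart over all genes. *Nr4a2*, a nuclear receptor quickly induced by cAMP, was at 6.13, 7.02 and 6.33 CPM at 3 m and at 42.7, 48.5 and 21.6 CPM at 24 m. It parted the ages without 3 m replicate 2 standing out (log2 fold change 2.53, edgeR adjusted p = 0.209, DESeq2 adjusted p = 5.24e-07). Its relative *Nr4a1* was at 211, 13.8 and 145 CPM at 3 m and at 1068, 1536 and 508 CPM at 24 m, with the low value in 3 m replicate 2. The others named by the smallest p were *Klf6* (log2 fold change 2.40), the antiproliferative *Btg2* (1.31) and the heat shock genes *Hspa1b* (4.46) and *Hspa1a* (3.86), near-identical copies whose reads the counting may split. The part of these genes in the level of *Per1* was not tested.

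Of 13 glucocorticoid response genes tested, 12 were above 0, with a median of 0.85 against 0.05 over all tested genes, and 5 were higher at an unadjusted p under 0.05, beside 3.56% of tested genes. Their summed level was 1082 to 1335 CPM at 3 m and 1677 to 2988 CPM at 24 m. *Errfi1*, a feedback inhibitor of the EGF receptor, was at 628, 414 and 666 CPM at 3 m and at 1878, 1785 and 903 CPM at 24 m, and was the 1 gene of this list that DESeq2 called, beside 1.59% of its genes (log2 fold change 1.42, adjusted p = 0.0135, edgeR adjusted p = 0.414). *Cebpd*, a C/EBP transcription factor, was at 94.5, 13.0 and 75.6 CPM at 3 m and at 205, 257 and 136 CPM at 24 m. Its low value lay in the same library as those of *Per1* and *Nr1d1*, the one that stood apart over all genes. The others at that p were *Ddit4* (log2 fold change 1.54), *Zbtb16* (1.93) and the cell cycle inhibitor *Cdkn1a* (0.85), with edgeR adjusted p of 0.828 each. In every 24 m library 4 of the 13 were higher than at 3 m, beside 9.74% of tested genes. None was lower in every one, beside 5.41%. The 4 were *Errfi1*, *Cebpd*, *Ddit4* and *Sgk1* (log2 fold change 2.30, edgeR adjusted p = 0.828), which was at 0 in 3 m replicate 2. *Zbtb16* and *Cdkn1a* overlapped between the ages, as did *Tsc22d3* (0.33), *Klf9* (0.21) and *Fkbp5* (0.17). *Nr3c1* was the 1 gene below 0 (-0.63). The part of these genes in the clock values was not tested.

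Markers of other cells were read in the same libraries, and edgeR called none of them, as it called no gene at all. DESeq2 called 5 leukocyte, 3 airway, 1 endothelial and 1 stromal or mesothelial marker higher, beside 1.59% of its genes. It called 0 of the markers lower, beside 0.156%. The 11 leukocyte markers summed to 6.80 to 14.1 CPM at 3 m and 22.8 to 105 CPM at 24 m, without overlap, and 9 of 9 tested had a log2 fold change above 0. *Itgb2*, *Cd3e*, *Marco* and *S100a8* were at 0 in all 3 m libraries, and 7, 9 and 4 of the 11 were at 0 in 3 m replicates 1, 2 and 3. At 24 m *Cd3e* in replicate 1 was the 1 leukocyte marker at 0. The sums of the other lists overlapped between the ages, though some of their members did not. The 6 endothelial markers summed to 3.86 to 5.37 CPM at 3 m against 3.63 to 16.4 CPM at 24 m, and 4 of 5 tested were above 0. Of these 6, *Cdh5* and *Tie1* were at 0 in all 3 m libraries, *Pecam1* overlapped between the ages, and *Tek* was lower in every 24 m library (2.75, 2.46 and 2.72 against 1.49, 2.31 and 1.28 CPM). The 9 stromal and mesothelial markers summed to 2.96 to 14.4 against 10.6 to 52.1 CPM, with 5 of 6 tested above 0. Of these, *Msln* was at 0 in all 3 m libraries and at 4.09, 23.8 and 3.78 CPM at 24 m, while *Col1a1* overlapped between the ages. For the 9 airway markers the sums were 293 to 745 against 629 to 1248 CPM, with 9 of 9 above 0. Of these 9, 4 were higher in every 24 m library, beside 9.74% of all tested genes, and 0 were lower in every one. *Scgb3a1* was at 0.72, 0 and 1.55 CPM at 3 m and at 47.7, 119 and 41.7 CPM at 24 m. *Scgb1a1* overlapped, at 584, 712 and 215 CPM at 3 m and 601, 829 and 406 CPM at 24 m. It made up most of the airway sum in each library, so the overlap of the sums is largely that of this gene. The 7 AT1 markers summed to 984 to 1809 against 1585 to 1910 CPM, with 5 of 7 above 0. The part of these cells in the clock values was not tested.

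Genes with the pattern most like *Dbp* and *Npas2* were found by the root mean square difference of centred log2 CPM over the 6 libraries, among 8516 genes with a mean of at least 10 CPM. For *Dbp*, whose own values had an SD of 1.81, they were *Zfp703*, *Cxcl1*, *Inka2*, *Cygb* and *Lcn2*, at differences of 0.754 to 0.798. No clock gene was among them. For *Npas2*, with an SD of 0.682, they were *Tg*, *Hepacam*, *Dpy19l3*, *Armh3* and *Exoc3l*, at 0.182 to 0.281. Without 3 m replicate 2, *Tg* still ranked 1st for *Npas2*, while *Zfp703* ranked 18th for *Dbp*.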

How the data were processed

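RNA was sequenced from sorted AT2 cells in 6 libraries, 3 per age, as paired-end reads from an ABclonal mRNA-seq kit. The deposited counts are whole numbers made by the authors, with no normalization. Per the submitters' processing notes, reads were handled with HISAT2 and featureCounts on GRCm39, and DESeq2 is also named, all without versions. The annotation release, the strand setting and the treatment of multimapped reads are not given in the sources used here. The FPKM values in the deposited table were computed by the authors and were used only for levels between genes.

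Counts were analysed in R 4.3.3 with edgeR 4.0.16 (TMM scaling), DESeq2 1.42.0 and limma 3.58.1. The function filterByExpr left 14899 of 24224 genes and removed 9325. The 24 m libraries were set against the 3 m libraries in edgeR's quasi-likelihood test, without a block, with Benjamini-Hochberg adjustment over all genes kept. Calls needed an adjusted p below 0.05 with a log2 fold change beyond 1 either way. The standard error is the log2 fold change divided by the root of the F statistic, and a prior count of 1 was used for log2 CPM. Alternatives were DESeq2, limma-voom, DESeq2 size factors, no filter, a filter of at least 50 counts in 3 libraries, no limit on the fold change, the replicate number as a block and each library left out. The tests were also run on simulated counts that held no library standing apart, and no conclusion is drawn from that run. Promoters came from RefSeq on GRCm38.p6 and exon overlaps from GENCODE vM21 on GRCm38, not the build of the counts, and are given for sequence only.

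The clock genes and lists were chosen with earlier results of these data known. The genes named are the clock genes, *Arntl*, up to 6 genes of each pathway list at an unadjusted p under 0.05, and the 5 genes most like *Dbp* and *Npas2*. Overlapping neighbours, cell type markers and the other genes of the pathway lists were named after their values were seen. Depth was 28827930 to 32394985 counts per library.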

Additional observations from a re-analysis of the deposited data

How the results depend on the processing

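Across 13 alternatives, the log2 fold changes of the clock genes kept their sign except that of *Clock*, which was 0.0756 in edgeR and 0.0655 in DESeq2 without replicate 2 at 3 m, while its lowest value was -0.83. Over all genes, 286 were called higher and 28 lower by DESeq2, with 2 clock genes higher. With no filter on low counts edgeR called 179 higher and 28 lower, with 5 clock genes higher and 1 lower. DESeq2 without 3 m replicate 2, added after the data had been seen, called 437 higher and 18 lower, with 5 clock genes higher and 1 lower. In edgeR with each library left out in turn, 0 to 82 genes were called higher and 0 to 3 lower, with 0 to 3 clock genes called higher. Those highest counts came without 3 m replicate 2, and 1 gene was called without 24 m replicate 3. Clock genes at an unadjusted p under 0.05 then numbered 3 to 6 higher and 0 to 3 lower. Without 24 m replicate 2 the counts at that p were 3 and 0. Those with ages that did not overlap numbered 5 to 7 higher and 1 to 3 lower, counts that leaving out a library can only keep or raise. The shares of all tested genes at that p or without overlap were not taken in these settings, so no conclusion is drawn from these counts. The median log2 fold change was 0.80 to 1.37. DESeq2 size factors, limma-voom, the stricter filter and no limit on the fold change gave 0 calls. The cause of these changes was not tested. With the replicate number as a block, 0 genes were called in either direction, and the median was 1.18. At an unadjusted p under 0.05, 5 clock genes were higher and 2 lower, again without the share over all tested genes. The deviations of same-numbered libraries from the mean of their age had correlations of 0.0103, -0.0417 and -0.0766. With 3 libraries per age these values cannot show or exclude pairs. The study names no pairing, so the numbers are not taken as pairs. With 3 pools per age, differences the size of the spread within an age are beyond these data, and an adjusted p above 0.05 does not show equal levels.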
